A study of Mus musculus with 4 samples.

Results

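Respiratory complex I was followed at the RNA level through the 46 genes of the deposited gene tables whose symbols begin with mt-Nd, or with Nduf, a letter a, b, c, s or v and a digit. They are 7 mitochondrially encoded and 39 nuclear genes of 22620 genes in all. The study compared immune cells of MC38 tumours, a transplantable mouse colon carcinoma line, grown in wild-type (WT) mice and in mice with a gene knockout (KO). Tumours were digested with enzymes, CD45-positive cells were enriched on magnetic beads, and single cells were captured for 3' RNA sequencing with unique molecular identifiers (UMIs). There were 2 libraries per genotype, named WT 1, WT 2, KO 1 and KO 2. Strain, age, sex and the number of mice behind a library are not stated in the labels, and a p-value therefore measures the spread between libraries, which may be technical.

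Complex I is the entry point for electrons from NADH into the respiratory chain of the inner mitochondrial membrane, and it pumps protons as it passes those electrons to ubiquinone. Its membrane arm is built around subunits made from mitochondrial DNA, while the NADH-oxidising and iron-sulphur subunits of the other arm, and all the accessory subunits, are made from nuclear genes and imported. The mitochondrial genes are read as long transcripts that are cut at the tRNAs lying between them, so that neighbouring mRNAs begin as parts of the same RNA. Complex I activity is known to change when macrophages are activated.

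The gene mt-Nd3, which encodes a small membrane subunit, was described on its own as well as with its neighbours. In mm10, by the GENCODE M21 annotation, mt-Nd3 is a single exon of 348 bases on the plus strand at chrM:9459-9806. The tRNA genes mt-Tg (chrM:9391-9458) and mt-Tr (chrM:9808-9875) lie on either side of it. Beyond them lie mt-Co3 (chrM:8607-9390), which encodes a complex IV subunit, and mt-Nd4l (chrM:9877-10173). The genes mt-Nd4l and mt-Nd4 (chrM:10167-11544) overlap by 7 bases and are known to share 1 mRNA, so that their reads cannot be fully told apart. The ends of mt-Nd5 (chrM:11742-13565) and mt-Nd6 (chrM:13552-14070), on opposite strands, overlap by 14 bases. The last 300 bases of mt-Nd3 (chrM:9507-9806) and the last 60 of mt-Nd4l (chrM:10114-10173) and mt-Nd4 (chrM:11485-11544) are shown. Reads of 3' libraries fall towards the ends of mRNAs, here the ends of mt-Nd3 and mt-Nd4. The end of mt-Nd4l lies inside the mRNA that it shares with mt-Nd4. The capitals mark the stop codon, or for mt-Nd4 the single T that polyadenylation completes to a stop codon.
mt-Nd3: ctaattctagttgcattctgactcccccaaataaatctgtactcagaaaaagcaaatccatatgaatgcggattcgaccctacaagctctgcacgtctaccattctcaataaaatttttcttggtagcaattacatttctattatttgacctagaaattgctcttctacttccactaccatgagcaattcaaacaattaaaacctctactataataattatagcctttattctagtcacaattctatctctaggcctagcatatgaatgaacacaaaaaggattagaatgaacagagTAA
mt-Nd4l: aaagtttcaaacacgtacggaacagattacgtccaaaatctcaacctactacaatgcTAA
mt-Nd4: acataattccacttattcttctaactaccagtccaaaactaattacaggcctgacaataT

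Between 8664 and 17207 barcodes per library were kept, and 58.1% to 65.2% of them met the marker gate of 1 immune type. A median kept barcode held 6052 to 12133 UMIs, and KO 1 had both the most barcodes and the lowest median. The UMIs of each gated type were summed per library, levels were expressed as UMIs per 1000000 UMIs of the sum (CPM), and the sums were tested for 7 types with at least 20 cells in every library. Macrophage-gated cells numbered 3715, 4243, 7601 and 3761 in WT 1, WT 2, KO 1 and KO 2, while CD8 T cells numbered only 26 and 58 in the WT libraries against 683 and 236 in the KO libraries. Pairs of libraries shared 22 to 51 barcodes. In the macrophage-gated sums the 7 monocyte markers together reached 874, 503, 306 and 297 CPM in WT 1, WT 2, KO 1 and KO 2, and the 6 T cell markers 1.21, 4.25, 24.2 and 16.3. Their part in the results below was not tested.

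Both KO libraries had less mt-Nd3 mRNA than both WT libraries in each of the 7 tested immune types, and the difference passed the test in 4 of the 7. In macrophage-gated cells it stood at 325, 213, 121 and 96.1 CPM in WT 1, WT 2, KO 1 and KO 2. Both KO libraries were below both WT libraries, as for 51.6% of all genes tested in these sums, and WT 1 was 1.53-fold above WT 2. That share is given here for macrophage-gated cells only, so whether such an order is unusual in the other types is not shown. The log2 difference, KO minus WT, was −1.15 ± 0.20 (SE, n = 2 libraries per genotype), with an adjusted p of 0.0210 by the quasi-likelihood test of edgeR, adjusted over all 12210 genes tested after Benjamini and Hochberg. Levels in CPM are relative to total UMIs, whereas the fitted differences use TMM scaling, so a fitted difference can be positive where the levels are nearly equal. Of all genes tested in these sums 11% were called at an adjusted p under 0.05, and 4.18% were called lower in KO. They were 828 genes higher and 510 lower, a split that turned to 590 higher and 1294 lower with scaling by total counts, which moves the median of all genes to −0.17 and mt-Nd3 to −1.31.

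**Figure D1:**
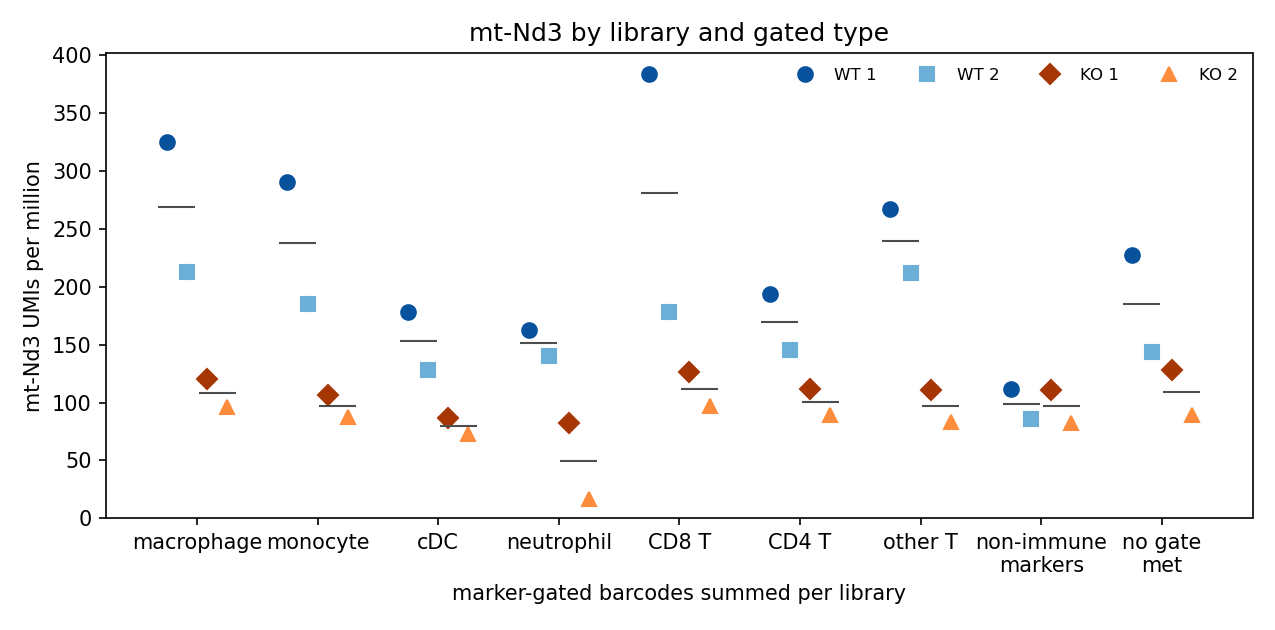
CPM of mt-Nd3 in the summed barcodes of each gated type (x axis) for WT 1, WT 2, KO 1 and KO 2, with a line at the mean of each genotype. Both KO libraries lie below both WT libraries in the 7 immune types, whereas the barcodes with non-immune markers range from 82.4 to 111 in the 4 libraries with no separation.

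Monocyte-gated cells had 290, 185, 107 and 87.7 CPM of mt-Nd3 in WT 1, WT 2, KO 1 and KO 2. The difference was −1.20 ± 0.24 on the log2 scale (SE, n = 2 per genotype, edgeR adjusted p = 0.0249). Conventional dendritic cells (cDC) had 178, 128, 86.8 and 72.9, again in the same order. Their difference was −0.90 ± 0.18 (SE, n = 2 per genotype, edgeR adjusted p = 0.00697). T cells with markers of neither or of both the CD4 and CD8 lineages ("other T") had 267, 212, 110 and 82.8, a difference of −1.18 ± 0.19 (SE, n = 2 per genotype, edgeR adjusted p = 0.0210). Single settings ended these calls: in monocyte-gated cells leaving out KO 1 (edgeR adjusted p = 0.0682), in other T cells leaving out KO 2 (edgeR adjusted p = 0.16) and in cDC the use of DESeq2 (adjusted p = 0.0809).

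In CD4 T cells mt-Nd3 stood at 194, 145, 111 and 89.2 CPM in WT 1, WT 2, KO 1 and KO 2, and in CD8 T cells at 384, 179, 127 and 97.4. The groups did not overlap in either type, a pattern whose share over all genes is not given here for T cells. The differences of −0.71 ± 0.18 and −1.11 ± 0.33 (SE, n = 2 per genotype) did not pass, with edgeR adjusted p of 0.0646 and 0.257. Both passed without WT 2 (−0.91 and −1.63) and without KO 1 (−0.90 and −1.38). The CD8 T value for WT 1 rested on 51 UMIs of mt-Nd3. Neutrophils had 163, 140, 82.5 and 16.7 CPM, and only 2 mt-Nd3 UMIs stood behind the last value. Their difference was −1.18 ± 0.41 (SE, n = 2 per genotype, edgeR adjusted p = 0.256), and without KO 1, which leaves that KO 2 sum alone, it was −3.06 and passed.

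The 4 libraries took the same order, WT 1 above WT 2 above KO 1 above KO 2, in all 7 tested types. These types come from the same 4 libraries and are not independent of each other. Leaving out WT 1 gave a difference of −0.86 in macrophage-gated cells, and the other libraries left out in turn gave values down to −1.38. Within the macrophage gate, 13 Leiden clusters held at least 20 cells of each library. In all 13 of 13 mt-Nd3 was lower in both KO libraries than in both WT libraries. The nuclear member Ndufb10, not called in macrophage-gated cells, was so in 10 of the 13. Over the whole gate 51.6% of the genes tested had both KO libraries below both WT libraries in CPM. The share within single clusters was not computed. The gate was not made up alike in the 2 genotypes: cluster 6 held 33.4% and 25.5% of the macrophage-gated cells of WT 1 and WT 2 but 0.987% and 2.07% of those of KO 1 and KO 2.

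As a share of the UMIs of all 7 mitochondrially encoded members, mt-Nd3 took 6.64% (95% Wilson interval 6.53% to 6.74%), 4.77% (4.69% to 4.85%), 2.62% (2.57% to 2.68%) and 2.11% (2.05% to 2.16%) in macrophage-gated cells of WT 1, WT 2, KO 1 and KO 2. The mean share was 5.70% ± 1.32 in WT and 2.36% ± 0.363 in KO (SD, n = 2 per genotype). The intervals cover counting error only and did not overlap between any pair of libraries. An exact two-sided permutation test gave p = 0.33, the smallest that 2 libraries against 2 can give. In the 6 other tested types both KO shares were also below both WT shares, with a KO mean of 0.421 to 0.601 times the WT mean.

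In barcodes with markers of non-immune cells the mt-Nd3 levels of the genotypes overlapped. The 5 fibroblast markers summed to 1610 to 2981 CPM in them, the 5 endothelial markers to 5.65 to 34.2 and the 5 tumour or epithelial markers to 0.37 to 0.82. The barcodes numbered 273, 280, 101 and 142 in WT 1, WT 2, KO 1 and KO 2, and mt-Nd3 stood at 111, 86.1, 111 and 82.4 CPM in them. KO differed from WT by 0.02 ± 0.17 (SE, n = 2 per genotype, edgeR adjusted p = 0.969). The difference was 1.15 log2 units less negative than in macrophage-gated cells, in a fit of the 7 immune types and these barcodes with library as a block (edgeR adjusted p = 3.65e-06, 2.66% of 11434 genes called for that term). The median difference of the 7 mitochondrially encoded members was also higher here, at 0.39 against 0.12 in macrophage-gated cells. The labels do not separate host stroma from MC38 cells among these barcodes, and MC38 cells do not carry the genotype of the mouse. These barcodes were examined after the values in immune cells had been seen. The share of mt-Nd3 among the 7 mitochondrially encoded members was 3.66%, 2.52%, 2.84% and 2.08% in them, again with overlap. Ptprc, which encodes CD45, stood at 21.3 to 60.4 CPM in these barcodes against 379 to 445 in macrophage-gated cells.

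Barcodes that met no gate had 227, 144, 129 and 89.2 CPM of mt-Nd3 in WT 1, WT 2, KO 1 and KO 2. Both KO libraries were below both WT libraries, but the difference of −0.76 ± 0.30 (SE, n = 2 per genotype) did not pass (edgeR adjusted p = 0.242). In B cells, NK cells and plasmacytoid dendritic cells, too few for a test, both KO libraries were also below both WT libraries in CPM. The B cell order rested on only 38, 2, 3 and 0 mt-Nd3 UMIs in WT 1, WT 2, KO 1 and KO 2. NK cells had 11, 42, 80 and 36 such UMIs, the first from 10 cells, and plasmacytoid dendritic cells 70, 24, 31 and 24. The share of all genes in such an order was not computed for these sums or for the barcodes that met no gate. Among the few mast cells the genotypes overlapped.

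The other 6 mitochondrially encoded members were not called by edgeR in any of the tested immune types with all 4 libraries and the filters above. Other settings called mt-Nd2 and mt-Nd6 in macrophage-gated cells. In neutrophils calls arose without KO 1, which leaves the KO 2 sum alone. The median difference of the mitochondrially encoded members tested there was then −2.48. The most abundant, mt-Nd1, which encodes the subunit at the junction of the arms where ubiquinone binds, had 1932, 1854, 1855 and 1797 CPM in macrophage-gated cells of WT 1, WT 2, KO 1 and KO 2. Its log2 difference was 0.10 ± 0.12 (SE, n = 2 per genotype). The antiporter-like proton-pumping subunit mt-Nd4 had 1441, 1388, 1485 and 1514, and its partner on the shared mRNA, mt-Nd4l, had 115, 87.9, 104 and 92.8. Their differences were 0.24 ± 0.11 and 0.12 ± 0.12, and scaling by total counts gave −0.04 for mt-Nd4l.

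The antiporter-like subunit mt-Nd2 had 769, 672, 789 and 790 CPM in the same sums, with both KO libraries just above WT 1. The difference was 0.29 ± 0.11 (SE, n = 2 per genotype, edgeR adjusted p = 0.134), and DESeq2 called it (0.30, adjusted p = 0.0357). The third subunit of this kind, mt-Nd5, had 300, 243, 238 and 255, with overlapping genotypes and a difference of 0.02 ± 0.11. The light-strand gene mt-Nd6, whose mRNA carries no poly(A) tail and is poorly captured by oligo(dT), had 11.1, 8.68, 12.2 and 11.5, and its difference of 0.42 ± 0.13 did not pass (edgeR adjusted p = 0.0745). It passed with no filter on low counts (edgeR adjusted p = 0.0339) and in cells of 5000 to 20000 UMIs (edgeR adjusted p = 0.0479). In the non-immune barcodes mt-Nd2 was higher in KO, at 445, 490, 644 and 690 CPM and a difference of 0.58 ± 0.10 (SE, n = 2 per genotype, edgeR adjusted p = 0.00690), where 2.23% of genes were called higher. Most members had a positive difference there, 6 of 7 mitochondrially encoded and 34 of 38 nuclear. Their medians were 0.39 and 0.13, against −0.0023 for all genes tested in these barcodes. The share of all genes with a positive difference was not computed.

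**Figure D2:**
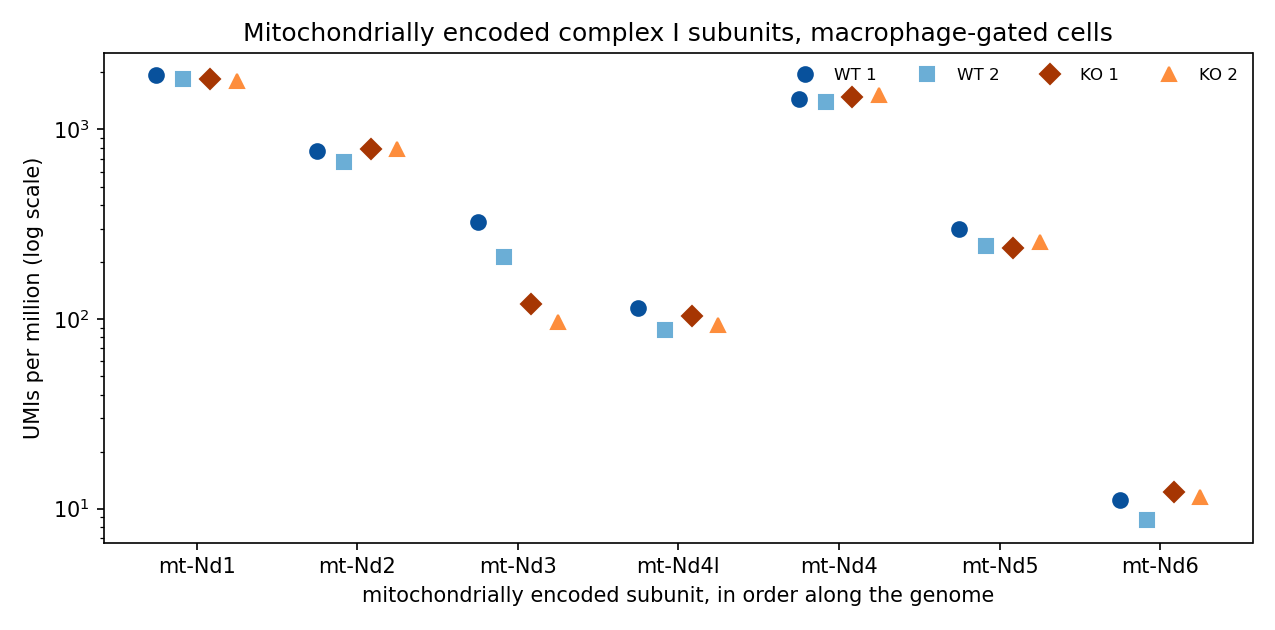
CPM on a log axis of the 7 mitochondrially encoded members in macrophage-gated cells, in their order along the mitochondrial genome, 1 point per library. The 4 libraries lie close together for mt-Nd1 and mt-Nd4, and spread from 96.1 to 325 for mt-Nd3.

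Among the mitochondrial mRNAs outside complex I, none of the 6 in the gene tables passed in macrophage- or monocyte-gated cells. The neighbour of mt-Nd3 on its other side, mt-Co3, had 5777, 5513, 5610 and 5390 CPM in macrophage-gated cells of WT 1, WT 2, KO 1 and KO 2, a difference of 0.12 ± 0.13 (SE, n = 2 per genotype). The gene mt-Atp8, which encodes a small subunit of ATP synthase, had 54.4, 32.2, 34.7 and 33.8, so that WT 1 alone was high. Of 13 genes for mitochondrial transcription and mRNA stability, none was called in macrophage-gated cells. Lrpprc, which encodes a protein that stabilises mitochondrial mRNAs, had 22.7, 19.8, 16.5 and 16.1 (difference −0.23 ± 0.10, edgeR adjusted p = 0.182). In monocyte-gated cells 1 of the 13, the transcription factor gene Tfb2m, was called lower, at 11.1, 10.6, 5.77 and 6.42 (difference −0.75 ± 0.23, SE, n = 2 per genotype, edgeR adjusted p = 0.0387), in sums where 9.06% of all genes were called lower.

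The 5 genes whose log2 levels followed mt-Nd3 most closely over the 28 sums of 7 types and 4 libraries, among 2941 genes with a mean of at least 50 CPM, were Scd2, Bola2, Brd7, Rps28 and Ndufb10. Their Pearson correlations were 0.84, 0.83, 0.81, 0.80 and 0.79, as a description over sums that share libraries and depth. Scd2, which encodes a stearoyl-CoA desaturase, had 144, 92.5, 34.1 and 45.9 CPM in macrophage-gated cells of WT 1, WT 2, KO 1 and KO 2. Ndufb10, an accessory subunit of the membrane arm, was the only complex I member among the 5.

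Among nuclear members in macrophage-gated cells, 1 of 38 tested was called, and the 39th, Ndufb11b, had 0 UMIs in the macrophage-gated sum of every library. With mt-Nd3 this makes 2 of 45 tested members, both lower in KO, against the 11% of all genes called in these sums. The median difference of the nuclear members was 0.08 on the log2 scale and that of the mitochondrially encoded members 0.12, against −0.01 for all genes tested. Scaled by total counts, the medians were −0.07, −0.04 and −0.17, so the sign of both member groups turns with the scaling while each stays above that of all genes. Of the 38 nuclear members 28 had a positive and 10 a negative difference. Measured as CPM, 14 of the 39 were below both WT libraries in both KO libraries and 6 were above, where 51.6% of tested genes were below and 15.4% above.

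The nuclear member called in macrophage-gated cells was Ndufa4, named as a complex I subunit and now known as a subunit of complex IV. The gene lies on the minus strand at chr6:11900292-11907497 (mm10). It had 134, 97.0, 65.3 and 69.2 CPM in WT 1, WT 2, KO 1 and KO 2. Both KO libraries were lower than both WT libraries, and the WT libraries differed from each other by more than the KO libraries did. The log2 difference was −0.62 ± 0.13 (SE, n = 2 per genotype, edgeR adjusted p = 0.0270). It did not pass without WT 1 (−0.42, edgeR adjusted p = 0.0627), with replicate number as a block (−0.61, edgeR adjusted p = 0.0718) or with equal weight given to each of the 13 clusters (−0.46, limma adjusted p = 0.0984). In 10 of those 13 clusters both KO libraries were below both WT libraries, and in 3 they overlapped.

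The difference in Ndufa4 varied between the immune types. Monocyte-gated cells had 144, 155, 178 and 160 CPM in WT 1, WT 2, KO 1 and KO 2, with KO above WT, and cDC had 132, 145, 204 and 179. The differences in monocyte-gated cells and cDC, of 0.26 ± 0.11 and 0.49 ± 0.15 (SE, n = 2 per genotype), did not pass (edgeR adjusted p = 0.105 and 0.118). The cDC difference passed with a replicate block (0.48, edgeR adjusted p = 0.0335) and without KO 2 (0.61, edgeR adjusted p = 0.0496). With types taken from Leiden clusters the difference was −0.03 in the type named monocyte. Its clusters 1, 2 and 3 held 114, 2637 and 604 macrophage-gated cells and 1197, 556 and 314 monocyte-gated cells. In the interaction test, a fit over 28 sums of 7 types with library as a block, Ndufa4 was the 1 of 45 members called (edgeR adjusted p = 0.00257), against 6.86% of all genes. Relative to macrophage-gated cells its difference was 0.90 higher in monocyte-gated cells (edgeR adjusted p = 0.00198) and 1.10 higher in cDC (edgeR adjusted p = 0.00175).

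**Figure D3:**
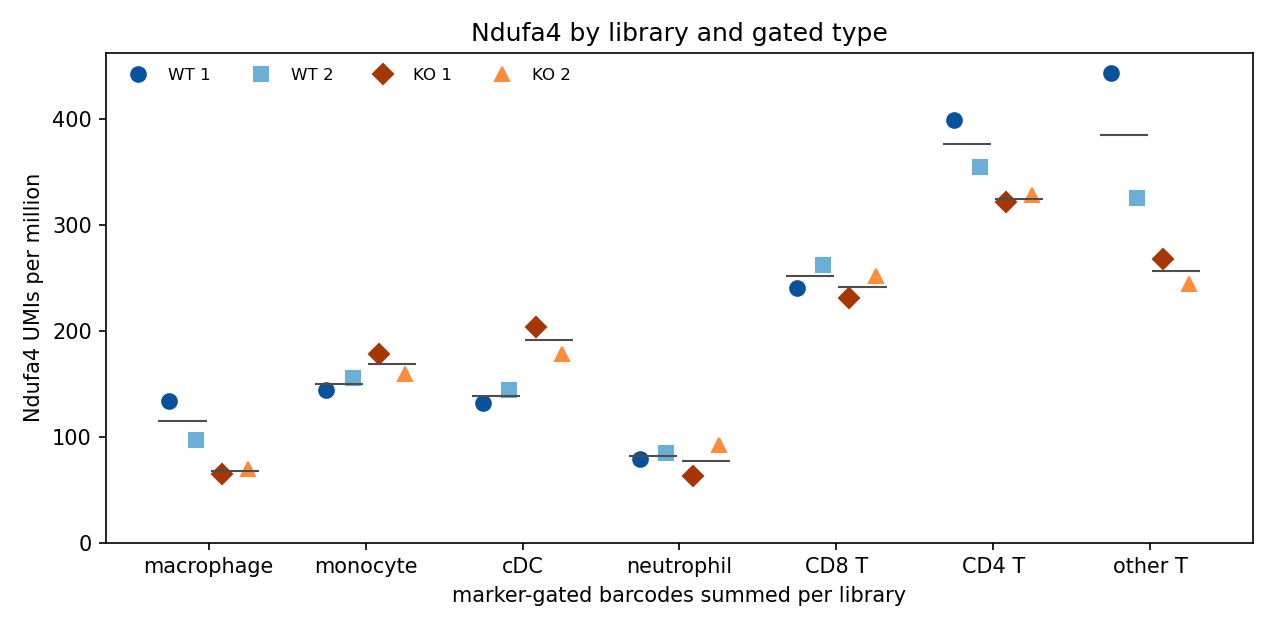
CPM of Ndufa4 in each gated type (x axis) for WT 1, WT 2, KO 1 and KO 2, with a line at the mean of each genotype. KO libraries are below WT in macrophage-gated cells (65.3 and 69.2 against 97.0 and 134) and above WT in monocyte-gated cells and cDC.

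Ndufa4 was highest in T cells, at 322 to 400 CPM in CD4 T cells and 245 to 444 in other T cells. In other T cells both KO libraries (268 and 245) were below both WT libraries (444 and 326), and the difference of −0.46 ± 0.17 (SE, n = 2 per genotype) did not pass (edgeR adjusted p = 0.453). Without WT 1 the interaction for Ndufa4 did not pass (edgeR adjusted p = 0.351), and without each of the other libraries in turn it did, at 0.00261 to 0.0193. For mt-Nd3 the interaction over the 7 immune types was not called (edgeR adjusted p = 0.712), which does not show that the types were alike.

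The nuclear members spanned a wide range of levels in macrophage-gated cells. Ndufb1, a small accessory subunit of the membrane arm, was the highest at 479, 385, 454 and 350 CPM in WT 1, WT 2, KO 1 and KO 2, and the next were Ndufa2 at 316 to 356 and Ndufb8 at 282 to 308. Their fitted differences of 0.05 ± 0.15, 0.07 ± 0.10 and 0.10 ± 0.11 (SE, n = 2 per genotype) were smaller than their errors. Ndufa9, an accessory subunit beside the ubiquinone site, had 60.1, 70.7, 71.0 and 75.2, a difference of 0.31 ± 0.12 that did not pass (edgeR adjusted p = 0.146) except without WT 2 (0.49, edgeR adjusted p = 0.0299). Since 3' libraries count molecules of each mRNA once, these levels are not divided by length.

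The nuclear core subunits carry the flavin and the iron-sulphur clusters or the ubiquinone-binding face. Of those described here, Ndufs1, Ndufs3, Ndufs7, Ndufs8, Ndufv1 and Ndufv2, none was called in macrophage- or monocyte-gated cells by edgeR with all 4 libraries and TMM scaling. Ndufs8, an iron-sulphur subunit, had 98.5, 104, 70.3 and 83.6 CPM in macrophage-gated cells of WT 1, WT 2, KO 1 and KO 2, and Ndufs3 had 95.1, 108, 109 and 112. Their differences of −0.25 ± 0.12 and 0.27 ± 0.11 (SE, n = 2 per genotype) were the lowest and highest among them. Leaving out each library in turn gave −0.38 to −0.11 for Ndufs8, lowest without KO 2 and nearest 0 without KO 1, and 0.14 without WT 1 to 0.43 without WT 2 for Ndufs3. The last passed (edgeR adjusted p = 0.0447), as did Ndufs8 with scaling by total counts (−0.40, edgeR adjusted p = 0.0438). Ndufv1, which binds NADH and flavin, had 57.0, 71.0, 59.4 and 62.4, and its partner Ndufv2 had 121, 134, 107 and 117, with differences of 0.08 ± 0.14 and −0.04 ± 0.11. Ndufs1, which holds several iron-sulphur clusters, was the scarcest of them at 34.3, 31.8, 28.4 and 29.1, with a difference of −0.05 ± 0.09. Ndufs7, beside the ubiquinone site, differed by 0.17 ± 0.11.

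**Figure D4:**
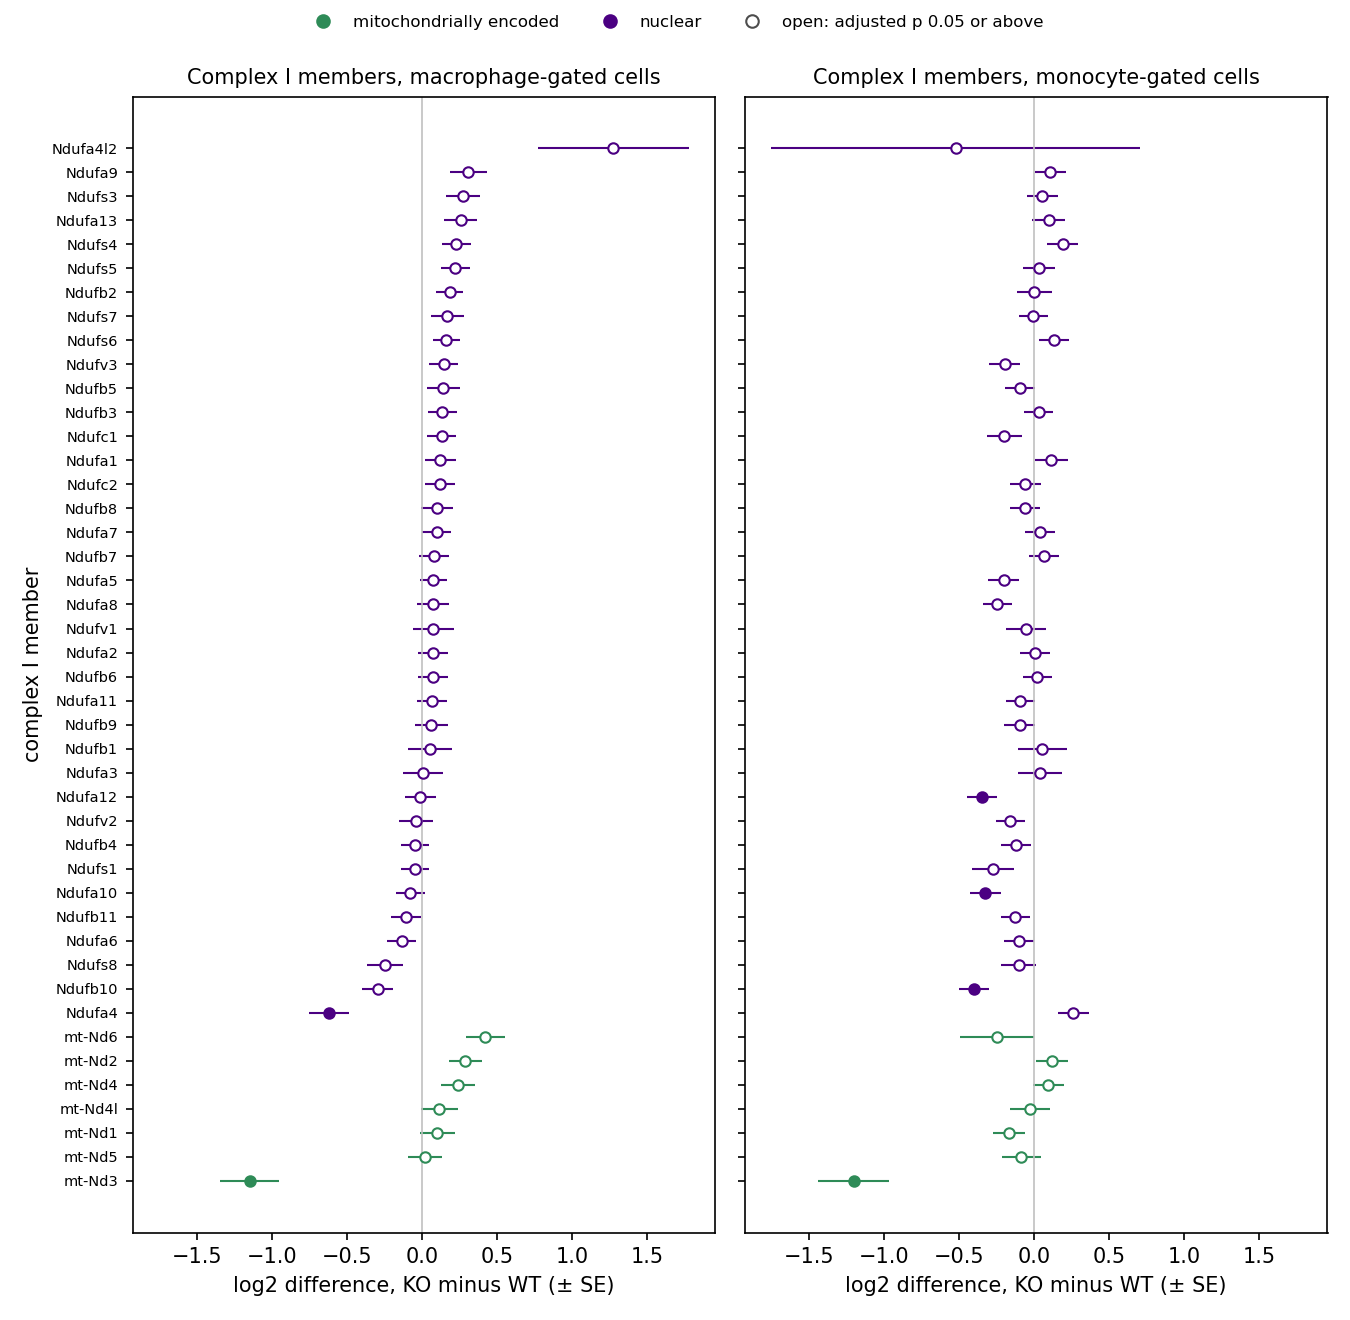
Log2 differences, KO minus WT, of the tested members described here (y axis) in macrophage-gated and monocyte-gated cells, with bars of 1 SE and filled points where the adjusted p was under 0.05. The point of mt-Nd3 lies at −1.15 and −1.20, while Ndufa4 lies at −0.62 in macrophage-gated and 0.26 in monocyte-gated cells.

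In monocyte-gated cells edgeR called 3 accessory subunits, all lower in KO. Ndufb10 had 207, 213, 151 and 147 CPM in WT 1, WT 2, KO 1 and KO 2, a difference of −0.40 ± 0.10 (SE, n = 2 per genotype, edgeR adjusted p = 0.0132). Ndufa12 had 130, 127, 91.6 and 98.4 (difference −0.35 ± 0.10, edgeR adjusted p = 0.0299). Ndufa10 had 95.8, 102, 73.1 and 75.1 (difference −0.33 ± 0.10, edgeR adjusted p = 0.0450). With mt-Nd3 these were 4 of 45 members, against 20.6% of all genes called in these sums and 9.06% called lower. DESeq2 left 1 member called in monocyte-gated cells, where it called 1144 of 10236 genes. Ndufa12 and Ndufa10 lost their calls whichever of the 4 libraries was left out, and Ndufb10 lost its call without KO 1 or KO 2 (edgeR adjusted p = 0.0955 and 0.0953). A replicate block ended the calls of Ndufa12 and Ndufa10 (edgeR adjusted p = 0.0580 and 0.0726). In the Leiden clusters named monocyte, which also held many macrophage-gated cells, their differences were 0.0022 and −0.14 (edgeR adjusted p = 0.991 and 0.308).

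In macrophage-gated cells Ndufb10 was also below both WT libraries in both KO libraries, at 205, 214, 150 and 158 CPM, without passing there (difference −0.29 ± 0.10, edgeR adjusted p = 0.109). It passed there with scaling by total counts (−0.45, edgeR adjusted p = 0.0183) and in cells of 5000 to 20000 UMIs (edgeR adjusted p = 0.0444). It was the lowest member not called in those sums. The highest was Ndufa4l2, a relative of Ndufa4 known to respond to low oxygen, at 5.16, 2.46, 5.65 and 10.7 CPM. Its difference was 1.28 ± 0.50 (SE, n = 2 per genotype, edgeR adjusted p = 0.213), with a value of 0.16 when types were taken from Leiden clusters. DESeq2 called it (adjusted p = 0.00539), as did edgeR without KO 1 (1.68, adjusted p = 2.53e-10). In barcodes that met no gate Ndufa4l2 was lower in KO, at 16.0, 10.9, 5.80 and 5.33 (difference −1.26 ± 0.21, SE, n = 2 per genotype, edgeR adjusted p = 0.0405), where 1.01% of genes were called lower. In monocyte-gated cells it was the lowest member not called, at 9.80, 1.17, 1.67 and 6.42, with overlapping genotypes and a difference of −0.52 ± 1.23.

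In the other immune types the members gave few calls. In cDC and in other T cells mt-Nd3 was the 1 member called of 44 tested, against 2.1% and 0.308% of all genes (0.775% and 0.0355% called lower). In all gated immune cells together it was the 1 member called of 45 (difference −1.16 ± 0.21, edgeR adjusted p = 0.0282), against 11.5%. No member was called in neutrophils (42 tested, 1.23% of genes called), CD8 T cells (43, 0.515%) or CD4 T cells (44, 0.934%) by edgeR or by DESeq2. At an unadjusted p under 0.05 by edgeR there were 2 members lower in neutrophils, 1 lower in CD8 T cells, and 3 higher and 3 lower in CD4 T cells. Of all genes tested in these types, 10.7%, 9.29% and 7.74% had such a p in either direction. Members at the ends of the range in the other types did not pass either with all 4 libraries and no block. In cDC the accessory subunit Ndufa6 had 416, 371, 304 and 269 CPM in WT 1, WT 2, KO 1 and KO 2, with both KO libraries below both WT libraries (difference −0.44 ± 0.14, SE, n = 2 per genotype, edgeR adjusted p = 0.118), and with a replicate block it was called (edgeR adjusted p = 0.0410), as with types taken from Leiden clusters (edgeR adjusted p = 0.0343). In other T cells Ndufa5, an accessory subunit of the matrix arm, had 123, 142, 93.9 and 80.8 (difference −0.57 ± 0.19, edgeR adjusted p = 0.338), and passed without WT 1 (−0.66, edgeR adjusted p = 0.0338). Ndufs6, a zinc-binding accessory subunit, had 102, 117, 159 and 148 there (difference 0.52 ± 0.18, edgeR adjusted p = 0.418). In CD4 T cells Ndufb10 had 206, 211, 160 and 152 (difference −0.39 ± 0.15, edgeR adjusted p = 0.401). In CD8 T cells the lowest member after mt-Nd3 was Ndufa9 (−0.45 ± 0.30) and the highest Ndufb5 (0.41 ± 0.21). In neutrophils 33 of the 36 nuclear members tested had a negative difference, with a median of −0.21 against −0.0027 for all genes, and KO 2 gave only 66 neutrophils. With types taken from Leiden clusters the direction turned: 24 of 36 were positive, with a median of 0.15 for the nuclear and 0.64 for the mitochondrially encoded members. In the gated neutrophils 12 of 37 were positive without KO 2, with a median of −0.15.

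The ratio of mitochondrially encoded to nuclear member UMIs was 0.729, 0.682, 0.733 and 0.735 in macrophage-gated cells of WT 1, WT 2, KO 1 and KO 2. The means were 0.706 ± 0.0330 in WT and 0.734 ± 0.00125 in KO (SD, n = 2 per genotype). Both KO values were above both WT values, while the gap between the means was smaller than the spread between the WT libraries. The mitochondrially encoded members summed to 4467 to 4893 CPM in these sums. Without mt-Nd3, which is part of the ratio, they summed to 4568, 4254, 4483 and 4461 in WT 1, WT 2, KO 1 and KO 2. The nuclear members summed to 6713, 6547, 6281 and 6202. The ratio without mt-Nd3 was not computed. In monocyte-gated cells the ratio was 0.669, 0.600, 0.626 and 0.622, with both KO values between the WT values.

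CD4 T cells had the largest gap without overlap among the tested types, at 0.477, 0.499, 0.570 and 0.681, with means of 0.488 ± 0.0154 in WT and 0.625 ± 0.0785 in KO (SD, n = 2 per genotype). With only cells of 5000 to 20000 UMIs the KO mean was 1.02 times the WT mean, against 1.28 times in all CD4 T cells. In cDC the ratio was 0.515, 0.488, 0.524 and 0.591, so that KO 1 was only just above WT 1. In CD8 T cells it was 0.961, 0.8001, 0.748 and 0.882, and in other T cells 0.652, 0.657, 0.648 and 0.675, with overlap in both. Neutrophils of KO 2 stood apart at 0.161 against 0.578, 0.594 and 0.651 in the other libraries. Barcodes that met no gate had 0.622, 0.573, 0.785 and 0.753, with both KO values above both WT values. In the neutrophil sum of KO 2 the other mitochondrial mRNAs were low too, at 3587 CPM against 12442 to 16166.

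**Figure D5:**
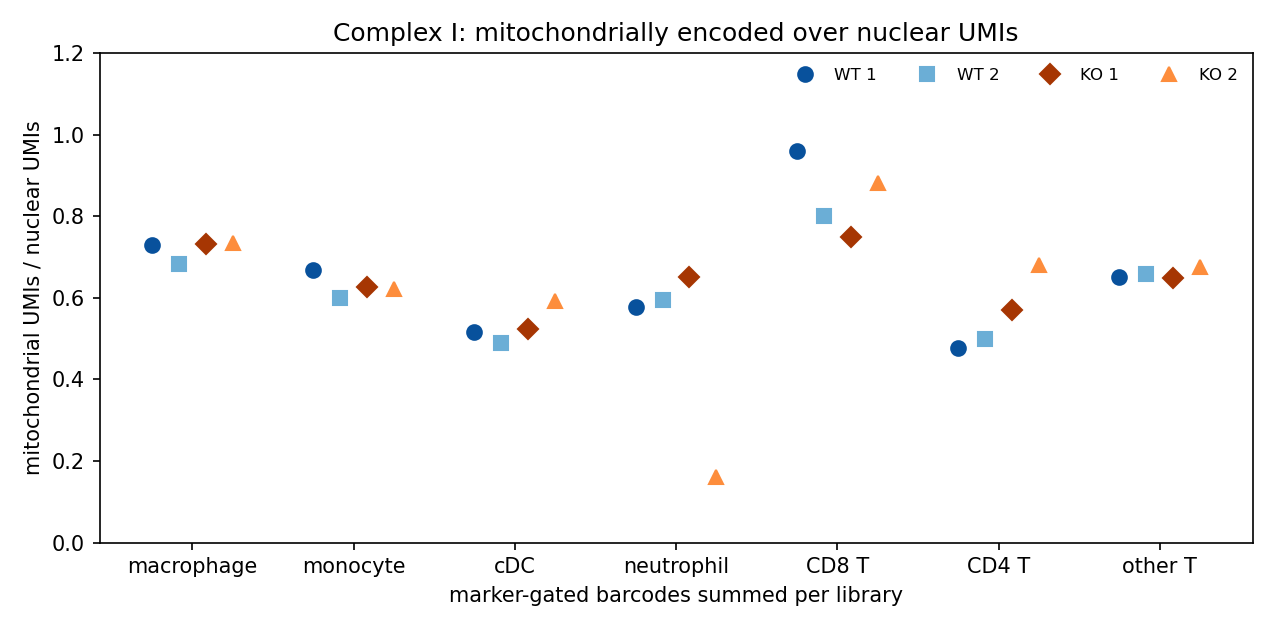
Ratio of summed mitochondrially encoded to summed nuclear member UMIs in each tested type (x axis), 1 point per library. Macrophage-gated cells lie between 0.682 and 0.735 in the 4 libraries, and the single low point is the neutrophil sum of KO 2 at 0.161.

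Outside the 46 members, the acyl carrier subunit gene Ndufab1 had 158, 167, 158 and 168 CPM in macrophage-gated cells of WT 1, WT 2, KO 1 and KO 2, a difference of 0.16 ± 0.10 (SE, n = 2 per genotype, edgeR adjusted p = 0.377). Of 18 complex I assembly factor genes none was called in macrophage-gated cells, with a median difference of −0.01. In monocyte-gated cells 1 of the 18 was called lower, Nubpl, which delivers iron-sulphur clusters to complex I, at 8.77, 8.68, 4.25 and 3.72 CPM (difference −1.04 ± 0.27, SE, n = 2 per genotype, edgeR adjusted p = 0.0184), against 9.06% of all genes called lower there. The 4 subunit genes of complex II, which is wholly nuclear in origin, had none called in either type, with a median difference of 0.02 in macrophage-gated cells. The 7 tested regulators of nuclear respiratory genes had none called in either type, with a median difference of −0.05 in macrophage-gated cells. Of 4 stress genes measured none was called there, and Fos, an immediate early gene induced by tissue digestion, had 1311, 1542, 1893 and 1625 (difference 0.45 ± 0.15, edgeR adjusted p = 0.0908).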

How the data were processed

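The authors deposited 4 matrices of raw UMI counts, whole numbers with 1 value for each gene of each barcode. The files' own headers name Cell Ranger 5.0.0, the submitters' processing notes Cell Ranger 5.0.1, mm10 and Seurat 3.15, the last with no role given. A barcode was kept with 200 or more genes detected and no more than 20% of UMIs from mitochondrial genes. Each was gated by marker counts, with thresholds set after the marker distributions had been seen, and barcodes meeting several gates were left out. Scrublet called at most 1 doublet in a library and so had not worked, and removing its highest scores was an alternative. Counts were summed per library and type and tested with edgeR 4.0.16 (R 4.3.3; filterByExpr, TMM, robust quasi-likelihood fit), with p-values adjusted over all genes (Benjamini-Hochberg) at 0.05. DESeq2 1.42.0, other scalings, filters, gates, Leiden clusters, limma 3.58.1 on equally weighted clusters, a replicate block and leaving out each library were alternatives. The interaction fit held 28 sums with library as a block. The named genes were the mt-Nd members, the nuclear core subunits, members called in any type, those with the largest difference in each direction that did not pass, and the 5 genes most like mt-Nd3. Ndufb1, Ndufa2, Ndufb8, Ndufa9 in macrophage-gated cells and genes of the context lists were named after their values had been seen. Members and lists were chosen with earlier results of these data known. Over all genes, the deviations of same-numbered libraries were hardly correlated (0.0074 in macrophage-gated cells, −0.061 in monocyte-gated cells and 0.066 in other T cells). With so few libraries per genotype, these correlations cannot decide whether the numbers pair the libraries. The lower-numbered library of each genotype had more mt-Nd3 in every tested type, which was not so for Ndufa4 in macrophage-gated cells. The targeted gene and 1 nuclear member are not reported by name here. The fit was also run on counts simulated from the macrophage-gated and CD8 T sums, with 200 genes changed. It recovered 76.7% of changes of 1 log2 unit in macrophage-gated cells but 37.0% in CD8 T cells.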

Additional observations from a re-analysis of the deposited data

Results flagged for a closer look

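The difference between KO and WT in Ndufa4 varied between the 7 tested immune types, with an edgeR adjusted p of 0.00257 for the interaction of genotype and type. It was −0.62 on the log2 scale in macrophage-gated cells, 0.26 in monocyte-gated cells and 0.49 in cDC. Without WT 1 the interaction had an adjusted p of 0.351.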

How the results depend on the processing

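Of 793 values recomputed under an alternative, 669 kept their direction and side of the threshold or stayed within the limits set for a count or ratio. The mt-Nd3 difference was negative in 109 of 109 alternative fits over the 7 types and called in 70, among them 17 of 17 in macrophage-gated cells. It was not called in monocyte-gated cells with 5000 to 20000 UMIs (−1.21) or in the Leiden clusters named monocyte (−1.23). Nor was it called in cDC by DESeq2 (−0.91) or in other T cells without the mitochondrial filter (−1.08). It was called in neutrophils after removal of the highest Scrublet scores (−1.51), in CD8 T cells with no count filter (−1.01) or Leiden clusters (−0.98), and in CD4 T cells with no count filter (−0.69), at most 10% mitochondrial UMIs (−0.83) or a stricter gate (−0.81). Among barcodes examined after seeing the data it was 0.024 in those with non-immune markers and −0.76 in those that met no gate. With the replicate block it was called in CD8 T cells (−1.18) and CD4 T cells (−0.73). Members called under the block were 1 in macrophage-gated cells, 2 in monocyte-gated cells and 3 in cDC. CD8 T cells and CD4 T cells had 1 each. Of all genes tested in these types, the block called 994 of 12210, 1606 of 10236, 389 of 8253, 176 of 6606 and 164 of 8247.

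All genes called, of those tested, follow each count of members in brackets. Members called in macrophage-gated cells numbered 4 by DESeq2 (1636 of 12210) and 4 with total counts (1884 of 12210). They numbered 4 with 5000 to 20000 UMIs (1845 of 11773) and 1 with equal cluster weights (278 of 12210). In all gated cells they were 3 by DESeq2 (1804 of 12757) and 2 with total counts (1786 of 12757). With 5000 to 20000 UMIs they were 2 (1364 of 12201). In monocyte-gated cells DESeq2 (1144 of 10236) and 5000 to 20000 UMIs (1348 of 9779) each left 1. The Leiden clusters named monocyte also left 1 (1063 of 11301). In cDC DESeq2 gave 0 (54 of 8253) and Leiden clusters 2 (566 of 10159). Neutrophils had 1 with no count filter (120 of 11923) and 1 without the highest Scrublet scores (133 of 3652). CD8 T cells had 1 with no count filter (219 of 12679) and 1 with Leiden clusters (85 of 9971). CD4 T cells had 1 with no count filter (194 of 13294) and 1 with at most 10% mitochondrial UMIs (78 of 8206). They had 1 with a stricter gate (98 of 7829), and other T cells had 0 without the mitochondrial filter (20 of 8468). Signs turned in macrophage-gated cells with total counts for mt-Nd1 (−0.052), mt-Nd4l (−0.043), mt-Nd5 (−0.14) and Ndufv1 (−0.073), and with equal cluster weights for mt-Nd1 (−0.078) and mt-Nd5 (−0.12). For mt-Nd5 they turned also with at most 10% mitochondrial UMIs (−0.017) and 5000 to 20000 UMIs (−0.0051). In the Leiden clusters named monocyte, which also held many macrophage-gated cells, Ndufa12 (0.0022) and Ndufa4 (−0.027) turned as well. The cause was not tested.

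The KO over WT ratio of mitochondrially encoded to nuclear members was with Leiden clusters 1.11 in all gated cells, 1.11 in macrophage-gated cells, 1.42 in neutrophils and 1.13 in CD8 T cells. It was 1.002 in cDC with a stricter gate, 1.02 in CD4 T cells with 5000 to 20000 UMIs, and 0.981 with at most 10% mitochondrial UMIs and 0.951 with a stricter gate in other T cells. The KO over WT share of mt-Nd3 in neutrophils was 0.442 with a stricter gate and 0.430 with Leiden clusters.

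Leaving out each library in turn gave 1 to 3 members called in all gated cells, 1 to 4 in macrophage-gated cells, 0 to 2 in monocyte-gated cells, 1 to 2 in cDC, 0 to 8 in neutrophils, 0 to 1 in CD8 T cells, 0 to 2 in CD4 T cells, 0 to 2 in other T cells and 1 to 4 in the interaction. The 4 of the interaction arose without KO 1, which leaves the low neutrophil sum of KO 2, and so did the 8 in neutrophils. The mt-Nd3 difference ranged from −1.48 to −0.86 in monocyte-gated cells, −3.06 to −0.80 in neutrophils, −1.63 to −0.54 in CD8 T cells, −0.91 to −0.50 in CD4 T cells and −1.42 to −1.003 in other T cells. In macrophage-gated cells mt-Nd4l ranged from −0.018 to 0.27, mt-Nd5 from −0.074 to 0.13, Ndufv1 from −0.11 to 0.30 and Ndufv2 from −0.15 to 0.093. A lone library is then assumed to vary like the others. Depth limits the neutrophil and CD8 T sums most, the smallest of which held 119614 and 132957 UMIs.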
